A study of Mus musculus with 6 samples.

Results

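The 9 genes described here encode the machinery by which a cell shows peptides to CD4+ T cells and gives them a second signal: Ciita, the class II chains H2-Aa, H2-Ab1 and H2-Eb1, the invariant chain Cd74, the peptide exchange factors H2-DMa and H2-DMb1, and the co-stimulatory ligands Cd80 and Cd86. They were chosen by gene symbol, and all 9 were found among the 11644 genes of the deposited table. MLL-ENL/NrasG12D cells, a mouse leukemia line with an MLL-ENL fusion and an activated Nras, were cultured for 72 h with 5 µM EPZ015666, an inhibitor of the arginine methyltransferase PRMT5, or with the solvent DMSO. Both groups were treated again on day 2. Each group has 3 poly-A RNA libraries, described as independent replicates without a statement of what was repeated, so p-values measure the spread between these 6 libraries, which may be technical. Both groups carry the fusion and the Nras mutation, and all libraries come from the same cell line in culture.

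MHC class II molecules are pairs of an α and a β chain that load peptides in endosomes and carry them to the surface. They are made mainly by dendritic cells, B cells and macrophages, and their genes share a promoter module, the X and Y boxes, on which RFX and NF-Y factors assemble and to which the coactivator CIITA is recruited. CD74 holds the new chains together and fills their groove until endosomal proteases degrade it, and DM then exchanges the remaining fragment for peptide, a step that DO restrains. CD80 and CD86 bind CD28 and CTLA-4 on T cells.

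Letters of the X and Y boxes can be marked in 3 of the 5 genes with promoter sequence at hand. Promoter windows of 300 bases (250 before to 50 after each annotated start; RefSeq, GRCm38.p6, the mm10 assembly) were held for 5 of the 9 genes, with 2 starts for H2-DMa. They were searched on both strands for the Y core TGATTGG, and for an X-Y pair in which GNAAC starts 20 to 40 bases before a Y core on the same strand. These letters were chosen after the sequences had been read, and the motifs do not overlap. H2-Aa, H2-Eb1 and H2-DMb1 hold the pair, as do H2-Oa and H2-Ob, the chains of DO. The stretches below are printed because they show a similar spacing in genes that responded very differently. They run 5′ to 3′ along the gene, with the X core and then the Y core in capitals.
H2-Aa: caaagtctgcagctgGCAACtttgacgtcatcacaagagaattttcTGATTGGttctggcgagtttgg
H2-Eb1: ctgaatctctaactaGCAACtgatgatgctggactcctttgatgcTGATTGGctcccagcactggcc
H2-DMb1: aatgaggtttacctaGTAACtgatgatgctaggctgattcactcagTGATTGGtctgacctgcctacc
H2-Oa: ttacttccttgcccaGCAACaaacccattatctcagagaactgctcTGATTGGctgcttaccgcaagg
H2-Ob: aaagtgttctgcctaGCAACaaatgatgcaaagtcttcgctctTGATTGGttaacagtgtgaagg

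These stretches lie at chr17:34287852-34287919 on the minus strand for H2-Aa, and on the plus strand at chr17:34305761-34305827 for H2-Eb1, chr17:34153082-34153149 for H2-DMb1, chr17:34092288-34092355 for H2-Oa and chr17:34238803-34238867 for H2-Ob. From the start of the X core to the start of the Y core there were 31 bases in H2-Aa, H2-DMb1 and H2-Oa, 30 in H2-Eb1 and 28 in H2-Ob. The Y core began between 45 bases (H2-Oa) and 63 bases (H2-DMb1) before the RefSeq start, which for H2-DMb1 and H2-Oa lies downstream of the start given by GENCODE. In H2-DMb2, the close copy of H2-DMb1, the search found the Y core without the pair. Neither was found in the windows of H2-DMa and Cd80. The windows of H2-DMa (from 34122582 and 34125268), H2-DMb2 (from 34144999) and Cd80 (from 38458683) lie wholly downstream of the GENCODE starts. Those starts are 34119541, 34143307 and 38455561, and the sequence there was not searched for these genes. Of 32851 promoter windows, 7.82% held the Y core on either strand and 0.569% held the pair. Because the letters were chosen after the class II sequences had been read, these shares do not test the finds above. Windows for Ciita, H2-Ab1, Cd74 and Cd86 were not used here.

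**Figure D1:**
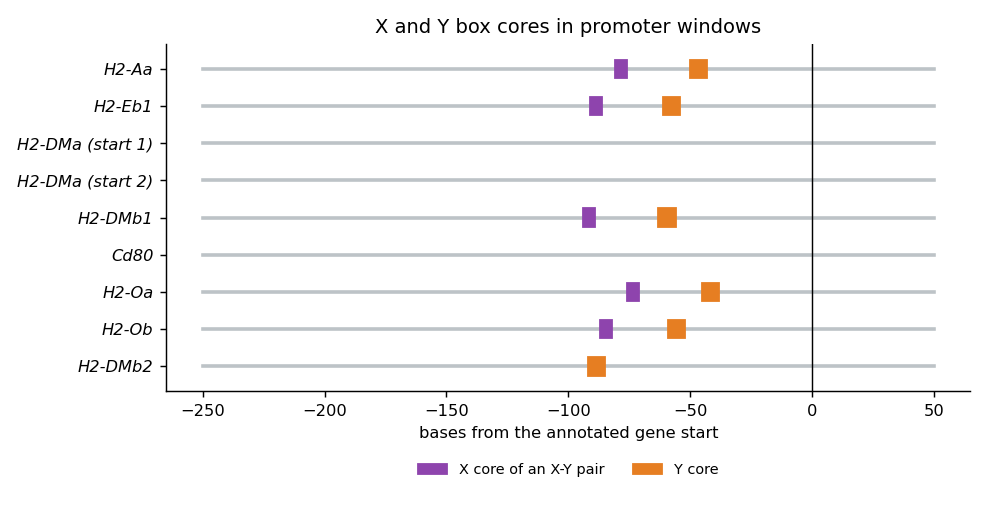
Positions of the Y core (orange) and of the X core of an X-Y pair (purple) in the promoter windows, in bases from the annotated gene start (vertical line); each grey bar is a window from 250 bases before to 50 after the start. H2-Aa, H2-Eb1, H2-DMb1, H2-Oa and H2-Ob show the pair, with 28 to 31 bases between the starts of the cores.

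The libraries with EPZ015666 held 11335948 to 15551525 reads assigned to genes, and those with DMSO 15505127 to 19197912. Values below are normalized counts, that is, reads scaled by the size factor of their library, so that 1 read was worth 1.02 to 1.40 normalized counts with EPZ015666 and 0.807 to 0.982 with DMSO. DMSO library 2 stood apart from the other DMSO libraries. The stress gene Ddit3 stood at 361, 368 and 391 with EPZ015666, and at 1378 in DMSO library 2 against 171 and 237 in DMSO libraries 1 and 3. Several immune genes below were highest among the DMSO libraries in library 2, and values without it are given for several of them.

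The 7 class II genes chosen here and Cd80 were higher with EPZ015666, and no change of Cd86 passed the threshold. Of the 9 genes, 8 rose (limma, adjusted p under 0.05 over all genes), none fell and 1 did not pass. Over all 11644 genes, 23.6% rose and 22.9% fell by this rule. The same 8 genes had every EPZ015666 library above every DMSO library, which held for 28.2% of all genes. By the quasi-likelihood test of edgeR on recovered reads 8 of the 9 rose as well, where 22.3% of all genes rose and 24.2% fell. When a fold of 2 was also required, 6 of the 9 rose and none fell, beside 7.16% and 3.04% of all genes. The median log2 fold change of the 9 was 2.31, beside 0.00 for all genes. In DMSO H2-Ab1 had at most 9 reads in a library, and no gene of the table has fewer than 10 in its highest library, so H2-Ab1 is in the table only through the inhibitor libraries. Without it 7 of 8 rose, 5 of them by at least 2-fold, and the median log2 fold change was 2.18. As the RNA comes from bulk cultures, more cells of a kind and more RNA per cell cannot be told apart.

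**Figure D2:**
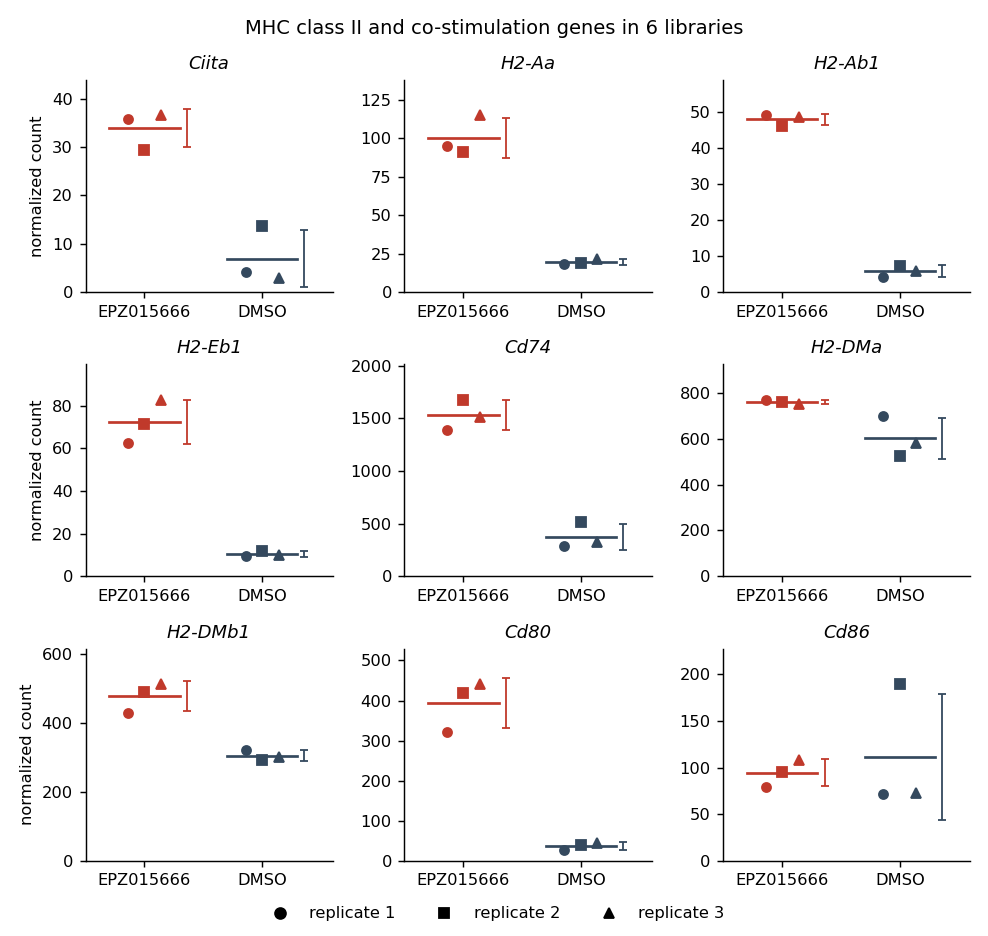
Normalized counts of the 9 genes in the 3 EPZ015666 libraries (red, left) and the 3 DMSO libraries (dark, right) of each panel; symbols mark replicate numbers, horizontal lines the means and bars the SD. In all panels but that of Cd86 the groups are separate, and DMSO library 2 (square) lies above the other DMSO libraries for Ciita, Cd74 and Cd86.

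Ciita (chromosome 16, 10480059 to 10528418, plus strand; mm10), which encodes the coactivator that switches class II genes on, was low in both groups. It had 35.8, 29.4 and 36.6 normalized counts with EPZ015666, and 4.08, 13.7 and 2.95 with DMSO. The groups did not overlap, and DMSO library 2 was the highest of its group. The means were 33.9 ± 3.95 with EPZ015666 and 6.92 ± 5.92 with DMSO (SD, n = 3 per group), a 4.90-fold rise with a log2 fold change of 2.38 ± 0.46 (SE; limma adjusted p = 0.00126). In reads these are 90 over the EPZ015666 libraries and 25 over the DMSO libraries, of which 17 came from DMSO library 2. Without that library the log2 fold change was 2.96. Ciita shares exon sequence on the opposite strand with Dexi, and the strand setting of the counting is not given; Dexi averaged 108 normalized counts with EPZ015666 and 103 with DMSO. Ciita is transcribed from several promoters used in different cell types, which a value for the whole gene does not separate.

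The class II chains were low in DMSO and rose by several fold. H2-Ab1 (chromosome 17, 34257689 to 34269419, plus strand), the β chain of the A molecule, had 49.0, 46.1 and 48.4 normalized counts with EPZ015666, and 4.08, 7.27 and 5.89 with DMSO. Its level was nearly the same in the 3 inhibitor libraries, all far above the DMSO libraries. The rise was 8.33-fold, from 126 reads with EPZ015666 and 20 with DMSO, with a log2 fold change of 2.89 ± 0.30 (SE; limma adjusted p = 1.89e-05).

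H2-Aa (chromosome 17, 34282744 to 34287823, minus strand), the α chain that pairs with it, had 94.998, 90.9 and 115 normalized counts with EPZ015666, and 17.9, 18.6 and 21.6 with DMSO. No DMSO library came near the inhibitor libraries, and DMSO library 2 did not stand out. The means were 100.3 ± 13.0 with EPZ015666 and 19.4 ± 1.96 with DMSO (SD, n = 3 per group), a 5.18-fold rise (log2 fold change 2.31 ± 0.20 SE, limma adjusted p = 4.91e-06).

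H2-Eb1 (chromosome 17, 34305867 to 34316674, plus strand), the β chain of the E molecule, had 62.3, 71.3 and 82.9 normalized counts with EPZ015666, and 9.78, 12.1 and 9.82 with DMSO. The groups were again far apart. The rise was 6.83-fold (log2 fold change 2.66 ± 0.24 SE, limma adjusted p = 6.77e-06). Its α chain partner in mice, H2-Ea, was not analysed here. The 95% intervals of the log2 fold changes of the 3 chains, 2.23 to 3.55 for H2-Ab1, 1.87 to 2.75 for H2-Aa and 2.13 to 3.19 for H2-Eb1, overlap one another.

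Cd74 (chromosome 18, 60803848 to 60812652, plus strand), the invariant chain, was far more abundant than the chains it binds. It had 1393, 1678 and 1511 normalized counts with EPZ015666, and 291, 520 and 322 with DMSO. All inhibitor libraries lay well above the DMSO libraries, of which library 2 was the highest. The means were 1527 ± 143 with EPZ015666 and 378 ± 124 with DMSO (SD, n = 3 per group), a 4.04-fold rise (log2 fold change 2.06 ± 0.18 SE, limma adjusted p = 4.10e-06). Without DMSO library 2 the log2 fold change was 2.31.

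Within a library, Cd74 was 6.75, 8.05 and 6.13 times the summed normalized count of the 3 chains with EPZ015666, and 9.15, 13.7 and 8.63 times with DMSO. The ratio was lower in every inhibitor library than in every DMSO library, but this rests on H2-Ab1, which is in the table only through the inhibitor libraries. Over H2-Aa and H2-Eb1 alone the ratio was 8.86, 10.3 and 7.63 with EPZ015666, and 10.5, 16.9 and 10.25 with DMSO, and the groups overlapped (difference of mean log2 ratios -0.43, exact permutation p = 0.3). With the 3 chains the mean log2 ratio differed by -0.54 between EPZ015666 and DMSO (exact permutation test, two-sided, p = 0.1, the smallest that 3 against 3 libraries allow), by -0.33 without DMSO library 2, and by -0.42 with a pseudocount of 5 (exact permutation p = 0.2).

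The peptide exchange genes were already well expressed in DMSO and rose little. H2-DMb1 (chromosome 17, 34153072 to 34160230, plus strand) had 430.0, 491 and 513 normalized counts with EPZ015666, and 323, 291 and 301 with DMSO. The groups did not overlap, and the rise was 1.57-fold (log2 fold change 0.64 ± 0.10 SE, limma adjusted p = 0.000425). H2-DMb1 and its neighbour H2-DMb2 are close copies, and how reads that match both were counted is not given. H2-DMb2 had 52.4 ± 10.7 with EPZ015666 and 45.6 ± 8.52 with DMSO (SD, n = 3 per group) and did not pass (limma adjusted p = 0.501).

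H2-DMa (chromosome 17, 34119541 to 34139101, plus strand), the α chain of DM, had 770.2, 758 and 751 normalized counts with EPZ015666, and 700.4, 524 and 580.3 with DMSO. DMSO library 1 came close to the inhibitor libraries. The rise was 1.26-fold, with a log2 fold change of 0.35 ± 0.11 (SE; limma adjusted p = 0.0196). It no longer passed when EPZ015666 library 2 (adjusted p = 0.0624, limma), DMSO library 2 (0.0634) or DMSO library 3 (0.0610) was left out. H2-DMa shares exon sequence on the opposite strand with Brd2, a chromatin reader that had 5418 normalized counts with EPZ015666 and 5102 with DMSO and did not pass (limma adjusted p = 0.384).

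The log2 fold change of H2-DMa had a 95% interval of 0.11 to 0.58, and that of H2-DMb1 of 0.42 to 0.87. Both intervals lie below those of the 3 chains, Cd74 and Ciita, the lowest of which begins at 1.39 (Ciita). The difference between these genes was not tested.

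**Figure D3:**
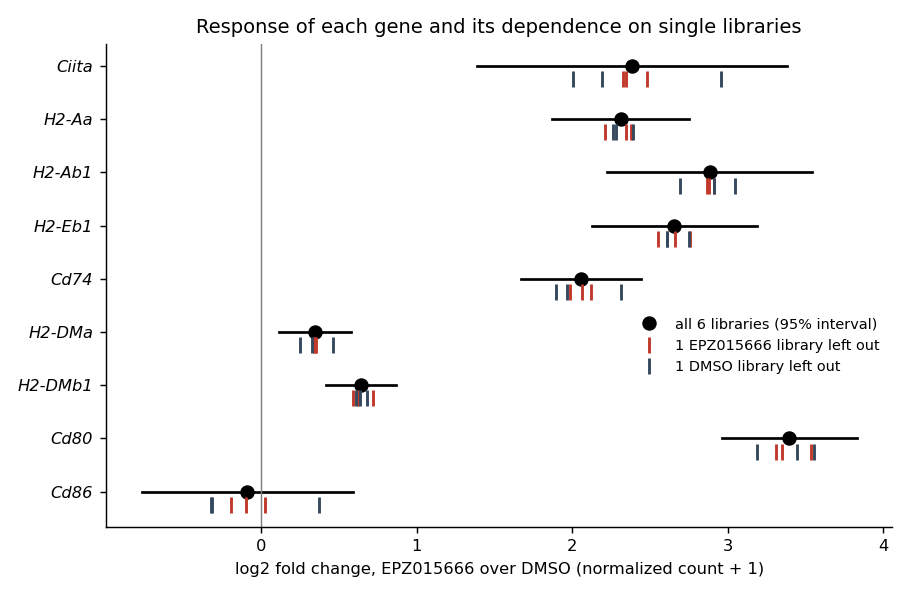
Log2 fold change of each gene, EPZ015666 over DMSO, on log2(normalized count + 1), with its 95% limma interval (black), and the values with 1 EPZ015666 library (red) or 1 DMSO library (dark) left out. Cd80 lies highest at 3.40, the chains, Cd74 and Ciita between 2.06 and 2.89, the DM genes below 1, and the interval of Cd86 spans 0.

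The co-stimulatory ligands, which lie on chromosome 16 and share their receptors, differed from each other. Cd80 (38455561 to 38496335, plus strand) had 322, 418 and 441 normalized counts with EPZ015666, and 26.9, 38.7 and 45.2 with DMSO. Every inhibitor library lay far above every DMSO library. The means were 394 ± 63.4 with EPZ015666 and 36.9 ± 9.26 with DMSO (SD, n = 3 per group), a 10.7-fold rise (log2 fold change 3.40 ± 0.20 SE, limma adjusted p = 2.30e-07).

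Cd86 (36603869 to 36666081, minus strand) had 79.7, 95.1 and 109 normalized counts with EPZ015666, and 71.7, 190 and 72.7 with DMSO. DMSO libraries 1 and 3 lay just below all inhibitor libraries, and DMSO library 2 lay far above them. The means were 94.5 ± 14.5 with EPZ015666 and 111 ± 67.8 with DMSO (SD, n = 3 per group), and the log2 fold change of -0.09 had a 95% interval of -0.77 to 0.59 (limma adjusted p = 0.835). Without DMSO library 2 it was 0.37, also short of the threshold (limma adjusted p = 0.124). The share that the state of that library had in this result was not tested.

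Within a library the ratio of Cd80 to Cd86 was 4.04, 4.40 and 4.06 with EPZ015666, and 0.375, 0.204 and 0.622 with DMSO. Cd80 thus outnumbered Cd86 in each inhibitor library, and Cd86 outnumbered Cd80 in each DMSO library. The mean log2 ratio was 2.05 ± 0.07 with EPZ015666 and -1.44 ± 0.80 with DMSO (SD, n = 3 per group), a difference of 3.49 (exact permutation test, two-sided, p = 0.1, the smallest that 3 against 3 libraries allow). Without DMSO library 2 the difference was 3.07. As counts, these ratios are not corrected for transcript length.

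Levels can be set side by side between genes only per length of transcript. Per kilobase of the principal transcript (GENCODE mouse release 21), the order of the mean normalized counts with EPZ015666 was Cd74 (1083 ± 101, SD), H2-DMa (458 ± 5.83), H2-DMb1 (341 ± 30.7), Cd80 (124 ± 19.97), H2-Aa (89.0 ± 11.5), H2-Eb1 (43.2 ± 6.17), H2-Ab1 (39.5 ± 1.26), Cd86 (37.2 ± 5.72) and Ciita (5.64 ± 0.66). H2-Eb1, H2-Ab1 and Cd86 lay within their spread of each other, and the other neighbours were further apart than their SDs. With DMSO the order was H2-DMa (363 ± 54.4), Cd74 (268 ± 88.0), H2-DMb1 (217 ± 11.4), Cd86 (43.9 ± 26.7), H2-Aa (17.2 ± 1.74), Cd80 (11.6 ± 2.92), H2-Eb1 (6.33 ± 0.80), H2-Ab1 (4.74 ± 1.32) and Ciita (1.15 ± 0.99). There H2-DMa, Cd74 and H2-DMb1 followed each other within their spread, as did Cd86 and H2-Aa, and H2-Eb1 and H2-Ab1. The chains of A and E stayed well below DM per length in both groups. These levels take 1 transcript per gene and would shift if other isoforms were used.

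On chromosome 17 the class II genes lie beside class I and immunoproteasome genes, and the chains rose while many neighbours fell. Between H2-K1 and H2-Eb1, a stretch of 321 kb chosen after the values were seen, 19 genes were measured, of which 5 are members. Of the other 14, 2 rose (Col11a2 and H2-Ob), 7 fell and 5 did not pass, with a median log2 fold change of -0.22. Genes of the whole table rose in 23.6% and fell in 22.9% of cases. H2-Ke6 fell most (log2 fold change -1.63, limma adjusted p = 1.995e-05), and H2-Oa (-0.50), Ring1 (-0.44) and Rxrb (-0.41) fell as well. Psmb9, an immunoproteasome subunit, had 513 normalized counts with EPZ015666 and 1463 with DMSO (log2 fold change -1.51, limma adjusted p = 2.30e-07). Tap1, a subunit of the peptide transporter for class I, fell by 0.67 on the log2 scale and H2-K1, a class I heavy chain, by 0.64. Tap2 and Psmb8, which lie between these genes and the class II chains, had log2 fold changes of 0.02 and -0.03 and did not pass.

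**Figure D4:**
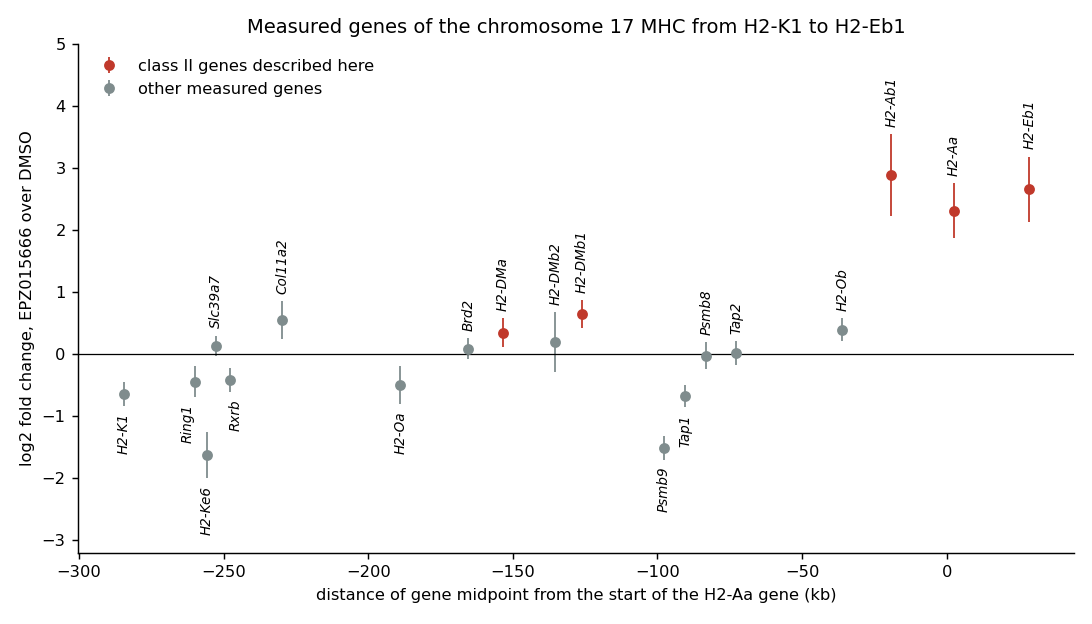
Log2 fold change, EPZ015666 over DMSO, with 95% limma interval, of the 19 measured genes from H2-K1 to H2-Eb1, placed by the distance of their midpoint from the start of the H2-Aa gene in kb. The 3 class II chains at the right lie between 2.31 and 2.89, whereas the other genes lie between -1.63 and 0.64.

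The DO chains, which carry the same promoter pair as H2-Aa and H2-Eb1, moved apart and by little. H2-Oa, the α chain, had 100.1, 123 and 112 normalized counts with EPZ015666, and 145, 174 and 155 with DMSO, and it fell by 0.50 on the log2 scale (limma adjusted p = 0.0129). H2-Ob, the β chain, had 1330, 1391 and 1405 with EPZ015666, and 1135, 975 and 1030 with DMSO, and it rose by 0.40 (limma adjusted p = 0.00237). Neither gene's groups overlapped, and both calls held with each library left out in turn.

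**Figure D5:**
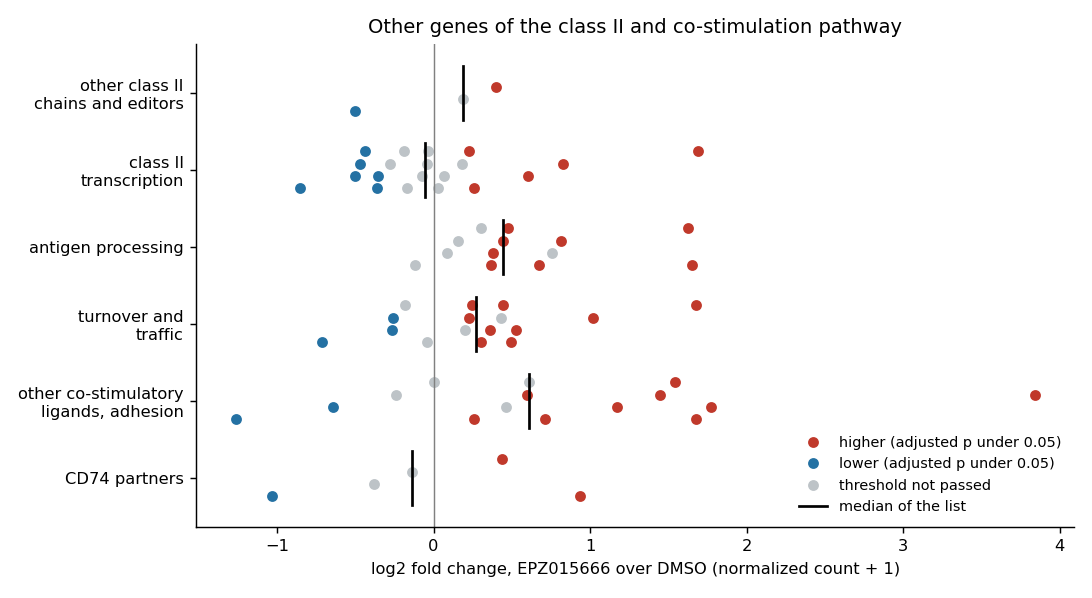
Log2 fold changes, EPZ015666 over DMSO, of the measured genes of 6 lists around class II presentation; each point is a gene, red for higher and blue for lower at a limma adjusted p under 0.05, grey otherwise, and black bars are list medians. The medians run from -0.14 (CD74 partners) to 0.61 (other co-stimulatory ligands and adhesion).

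The factors that act on class II promoters, and the interferon-γ route to Ciita, did not move together. Of 21 listed genes 20 were measured, of which 5 rose, 6 fell and 9 did not pass, with a median log2 fold change of -0.06. These counts are not far from the shares over all genes, of which 23.6% rose and 22.9% fell. Irf4, a factor of dendritic and B cells, rose to 124 ± 5.22 normalized counts with EPZ015666, against 38.3 ± 7.54 with DMSO (SD, n = 3 per group; limma adjusted p = 2.45e-05). Its relative Irf8 was lower, with 3032 ± 165 with EPZ015666 and 5469 ± 210 with DMSO (SD, n = 3 per group; limma adjusted p = 9.18e-06). The DNA-binding subunit Rfx5 had 487 with EPZ015666 and 477 with DMSO and did not pass (limma adjusted p = 0.844).

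Rfxap, its partner, fell by 0.44 on the log2 scale (limma adjusted p = 0.0106), and so did Nfya, a subunit of the Y box factor, by 0.47 (limma adjusted p = 0.000417). Upstream, the interferon-γ receptor chain Ifngr2 rose 1.52-fold (limma adjusted p = 0.000251), whereas the kinase Jak2 had 940 normalized counts with EPZ015666 and 1332 with DMSO and was lower (limma adjusted p = 0.000555). Nlrc5, the class I counterpart of Ciita, had 1861 ± 334 with EPZ015666 and 1630 ± 162 with DMSO and did not pass (limma adjusted p = 0.25). Spi1, the myeloid factor PU.1, rose by 0.23 (limma adjusted p = 0.0355), a call that was lost without any 1 of 5 libraries (adjusted p 0.0646 to 0.0990); it held without EPZ015666 library 3. The number of listed genes that rose was 2 in place of 5 without EPZ015666 library 2, without DMSO library 1 or without DMSO library 3. Rfxap and Jak2 were named after their values were seen.

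Genes of the endosomal compartment where class II is loaded were mostly higher. Of 13 antigen processing genes 8 rose, none fell and 5 did not pass, with a median log2 fold change of 0.44. Over all genes 23.6% rose and 22.9% fell. The proteases Ctsd (31767 ± 2215 normalized counts with EPZ015666, 10265 ± 2249 with DMSO) and Ctsb (21731 ± 1421 with EPZ015666, 7126 ± 1475 with DMSO) rose 3.09-fold and 3.05-fold (SD, n = 3 per group; limma adjusted p = 4.91e-06 and 3.38e-06). Lgmn, an asparaginyl protease, rose 1.57-fold and Ctsc 1.39-fold (limma adjusted p = 0.0013 and 0.00034). Ctss, the protease best known for removing the invariant chain, had 1301, 1650 and 1343 with EPZ015666, and 1053, 1438 and 1012 with DMSO. Its groups overlapped through DMSO library 2, and it did not pass (limma adjusted p = 0.083); without that library it did, with a log2 fold change of 0.46 (adjusted p = 0.00299, limma). Ctss and Ifi30, the lysosomal thiol reductase that opens disulfide bonds of antigens, were named after their values were seen. Ifi30 had 537 with EPZ015666 and 505 with DMSO and did not pass (limma adjusted p = 0.459).

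Transcripts of the ligases that remove class II and CD86 from the cell surface rose as well. March1, which ubiquitinates both in dendritic and B cells, had 540.4, 598 and 576 normalized counts with EPZ015666, and 184, 176 and 173 with DMSO. The groups were far apart, and the rise was 3.22-fold (log2 fold change 1.68 ± 0.10 SE, limma adjusted p = 2.61e-07). Its relative March8 rose 2.03-fold, to 1843 ± 93.0 with EPZ015666, against 909 ± 79.2 with DMSO (SD, n = 3 per group; limma adjusted p = 4.61e-06). Of the 16 measured genes of turnover and traffic, 9 rose, 3 fell and 4 did not pass, with a median log2 fold change of 0.27. Among all genes 23.6% rose and 22.9% fell. Lamp2 (1.44-fold) and Arl8b (1.36-fold), both of lysosomes, were among the rises of this list. The rises numbered 5 without EPZ015666 library 2, DMSO library 1 or DMSO library 3, and 1 gene fell in place of 3 without EPZ015666 library 2 or DMSO library 3.

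Among 15 measured genes for other co-stimulatory or co-inhibitory ligands and adhesion, 9 rose, 2 fell and 4 did not pass, with a median log2 fold change of 0.61. The shares over all genes were 23.6% that rose and 22.9% that fell. Icam1, an adhesion ligand of LFA-1, had 1068, 1008 and 1102 normalized counts with EPZ015666, and 388, 630.5 and 421 with DMSO (2.21-fold, limma adjusted p = 8.08e-05). Tnfsf9, the ligand of 4-1BB, had 173, 207 and 199 with EPZ015666, and 59.5, 111 and 42.2 with DMSO (2.72-fold, limma adjusted p = 0.000787). Both were highest among the DMSO libraries in library 2, and without it their log2 fold changes were 1.39 for Icam1, against 1.17 with it, and 1.92 for Tnfsf9, against 1.54. Tnfrsf14, a receptor and ligand known as HVEM, fell, with 89.2 ± 12.0 with EPZ015666 and 215 ± 29.0 with DMSO (SD, n = 3 per group; limma adjusted p = 5.57e-05).

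Tnfsf4, the OX40 ligand, rests on few reads, 47 with EPZ015666 and 1 with DMSO, a ratio of 62.4 with a 95% counting interval of 10.7 to 2517 (exact binomial). It is in the table only through the inhibitor libraries, as is Tnfsf15; of the other 13 genes 7 rose. Cd40, Cd83 and Cd274, chosen after their values were seen, are further ligands or markers of antigen presenting cells. Cd40, the receptor through which T cells act back on such cells, had 15.2 ± 1.78 normalized counts with EPZ015666 and 4.81 ± 3.70 with DMSO (SD, n = 3 per group; limma adjusted p = 0.0164). It no longer passed when DMSO library 1 (adjusted p = 0.0533, limma) or EPZ015666 library 3 (0.0546) was left out; without DMSO library 2 its log2 fold change was 2.16, against 1.68 with it.

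Cd83, which stabilizes class II and CD86 at the surface, had 79.7, 95.1 and 143 with EPZ015666, and 18.8, 75.1 and 17.7 with DMSO (limma adjusted p = 0.00675). Its log2 fold change was 1.77, and 2.43 without DMSO library 2. Cd274, the ligand PD-L1, had 111, 133 and 136 with EPZ015666, and 53.8, 133 and 77.6 with DMSO, and did not pass (limma adjusted p = 0.0771). Without DMSO library 2 the log2 fold change of Cd274 was 0.95 (adjusted p = 0.00108, limma). The rises in this list numbered 5 without EPZ015666 library 3 or DMSO library 1.

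CD74 also serves at the cell surface as a receptor for the cytokine MIF, with CD44 and chemokine receptors as partners. Cd44 had 3677, 3939 and 3594 normalized counts with EPZ015666, and 2072, 1911 and 1881 with DMSO, a 1.91-fold rise (limma adjusted p = 4.21e-06). Cxcr4 had 1237, 1284 and 1312 with EPZ015666, and 3036, 2267 and 2604 with DMSO, and fell by 1.03 on the log2 scale (limma adjusted p = 1.28e-05). Ddt, a cytokine related to MIF, rose 1.36-fold (limma adjusted p = 0.00611), and Mif itself had 3073 ± 115 with EPZ015666 and 3381 ± 260 with DMSO (SD, n = 3 per group) and did not pass (limma adjusted p = 0.204). Of the 5 measured genes of this group, 2 rose and 1 fell, beside 23.6% and 22.9% of all genes. Without EPZ015666 library 3, 2 of this group fell.

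Markers of cell types that carry class II were read beside these results. The counts of all marker lists stand beside 23.6% of all genes that rose and 22.9% that fell. Of the myeloid identity list, 10 of 11 genes were measured, with sums of 33902 to 35844 with EPZ015666 and 24807 to 27382 with DMSO; 5 rose and 2 fell. Itgam, the integrin chain CD11b, rose 3.79-fold, to 6314 ± 44.0 with EPZ015666, against 1667 ± 203 with DMSO (SD, n = 3 per group; limma adjusted p = 5.44e-08). Cd34 rose as well, with 13430 ± 800 with EPZ015666 and 8846 ± 757 with DMSO (SD; limma adjusted p = 0.000487). Hoxa9 had 3617 ± 164 with EPZ015666 and 2608 ± 247 with DMSO (SD; limma adjusted p = 0.00112). Csf2rb and Csf3r were the other rises. The granule genes Mpo and Ctsg fell by 1.11 and 0.31 on the log2 scale (limma adjusted p = 0.0215 and 0.0361). Neither fall passed without EPZ015666 library 2, EPZ015666 library 3 or DMSO library 1, and Ctsg passed only without DMSO library 2. Mpo was lowest among the DMSO libraries in library 2, and without that library it fell by 1.59. Of 10 B cell markers 2 were measured, Cd79b and Cd22, with summed levels of 18.4 to 40.9 with EPZ015666 and 38.7 to 47.1 with DMSO; neither passed, and Cd79b was lower without EPZ015666 library 3. The other 8, Ms4a1 among them, were not analysed here. Of 11 T and NK cell markers 3 were measured, with sums of 34.4 to 41.9 with EPZ015666 and 20.6 to 38.7 with DMSO; none passed, but Lck and Klrb1c were higher without DMSO library 2.

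Of 11 dendritic cell markers 8 were measured, with sums of 5895 to 6255 with EPZ015666 and 9124 to 10521 with DMSO. Of these Zbtb46, Cd209a, Itgax and Clec10a rose and Flt3 and Siglech fell. The sum is set mostly by Flt3, which had 3693 ± 28.5 with EPZ015666 and 8060 ± 763 with DMSO (SD, n = 3 per group). Of 11 macrophage and monocyte markers 9 were measured, with sums of 23209 to 24523 with EPZ015666 and 13172 to 15657 with DMSO. This sum is set mostly by Ccr2, with 15905 ± 797 with EPZ015666 and 9759 ± 1667 with DMSO (SD). In this list 6 rose, among them Csf1r (3.17-fold), Adgre1 (2.84-fold) and Ccr2 (1.63-fold), and 1, Mrc1, fell. The call of Mrc1 was lost in 4 of the 6 fits with a library left out, and that of C1qc in 5. C1qb, 1 of the rises, and Fcgr1 are in the table through 1 group only; of the other 7 genes 5 rose. No measured marker was at 0 in any library. The part that these marker genes have in the class II result was not tested.

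The genes most like a member in their course over the 6 libraries were taken from 9100 genes with a mean of at least 100 normalized counts, by the smallest Euclidean distance between log2 values after subtraction of each gene's mean. For Cd74 they were Gpnmb, Sdc3 and Slfn2 (distances 0.19, 0.25 and 0.26), each of them also highest among the DMSO libraries in library 2. For H2-Eb1 they were Trem2, Rgcc and Clec4d (0.17, 0.19 and 0.25), and for Cd80 Fam212b, Plxna1 and Il1rn (0.36, 0.57 and 0.57). Cd86 lay nearest to Rrm2b and Ppp1r15a (0.36 and 0.37), which had 520 and 718 normalized counts in DMSO library 2, against 227 and 223 in DMSO library 1 and 218 and 209 in DMSO library 3. The nearest genes were Sdc4 for Ciita (0.70), Psrc1 for H2-Aa (0.24) and Rab7b for H2-Ab1 (0.20). Those of H2-DMa and H2-DMb1 were Ube2l3 (0.10) and BC031181 (0.08). Further genes ranked for these members and for Cd86 are left out. These distances are a description over 6 libraries that share the treatment contrast.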

How the data were processed

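The authors deposited 1 table of a normalized signal, read counts per gene divided by a size factor per library. The values show this: 100% in each library were whole multiples of 1 step (tolerance 1e-06), so whole reads were recovered. TopHat2 2.0.10, DESeq 1.16.0, HTSeq 0.6.0, CASAVA 1.8.2 and mm10 appear, without roles, in the submitters' processing notes. The sources used here name a stranded mRNA kit but do not say whether counting used strand, on which annotation, or how reads with several matches were treated. Libraries were grouped by title. For the comparison, log2(normalized count + 1) of 11644 genes was fitted by limma-trend in R 4.3.3 (limma version 3.58.1), two-sided, with Benjamini-Hochberg adjustment, a threshold of 0.05 and no replicate block; this scale understates changes of low genes. Fold rises given for a gene are ratios of the group means of normalized counts. Log2 fold changes are differences of mean log2(normalized count + 1), so they can depart from the log2 of the fold. The script was tested on simulated data. Within-library ratios used an exact permutation test. Intervals on read ratios cover counting error only.

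The members, lists and motifs were chosen with earlier results of these data known. All members were named; from each pathway list up to 4 genes with the smallest adjusted p were named, with Rfx5, Spi1, Irf8 and Nlrc5 whatever their values, and likeness was ranked as described. Marker genes, genes of the MHC region, H2-DMb2, Mif and Tnfsf15 were named after their values were seen. Alternatives were other size factors and pseudocounts, edgeR 4.0.16 and DESeq2 1.42.0 on recovered reads (edgeR called 5412 genes, limma 5418), limma-voom, a filter on low genes, a 2-fold minimum, a replicate block, and fits without each library in turn. Such counts for the lists and the MHC region, and values without genes that are in the table through 1 group only, were chosen after seeing the data. No library pair agreed within sampling noise (chi-square per degree of freedom 9.47 to 20.8 within groups). Positions come from GENCODE mouse release 21 on mm10.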

Additional observations from a re-analysis of the deposited data

How the results depend on the processing

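Beside the 2-fold minimum, which H2-DMa and H2-DMb1 did not reach, the rises of H2-Aa, Cd74, H2-DMb1 and Cd80 passed under the 16 other alternatives. Those of Ciita, H2-Ab1 and H2-Eb1 passed under 15. These 3 were not tested with at least 5 CPM in 3 libraries, which left 5 of the 9 genes higher by construction. H2-Aa and Cd80 met that filter only through the inhibitor libraries, so their result under it adds no support. H2-Ab1 is in the table at all only through those libraries, so its passes add no support either. Size factors computed anew with DESeq2 gave each of the 9 genes the same values as the deposited scaling, so that alternative is no separate check. Over all genes a 2-fold minimum left 834 higher and 354 lower. Leaving out 1 library in turn gave 2078 to 2751 genes higher, 2067 to 2598 lower, 7 to 8 of the 9 genes higher and 0 lower; the difference in the log2 ratio of Cd80 to Cd86 ran from 3.07 to 3.87 and that of Cd74 to the chains from -0.66 to -0.33. The log2 fold change of Cd86 ran from -0.32 to 0.37 with a library left out; it turned positive without EPZ015666 replicate 1 (0.03) and without DMSO replicate 2 (0.37); the cause was not tested. Replicate numbers were not taken to pair the libraries: deviations of same-numbered libraries correlated at 0.17, 0.05 and 0.21, though each library correlated best with its own number. With the replicate block 3016 genes were higher and 2916 lower, and 8 of the 9 genes higher. Of 204 list counts 22 moved by over 1.5 times, and 2 of 34 for the MHC region, both with the 2-fold minimum. That minimum can only lower a count, and it gave part of the list moves as well, such as 2 rises in place of 8 among antigen processing genes. Depth limits Ciita and H2-Ab1 most, with 25 and 20 reads over the DMSO libraries.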
